A study of Homo sapiens with 25 samples.

Results

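The enhancer and promoter marks H3K4me1 and H3K27ac were compared in control HCT116 cells, an established human colorectal carcinoma line. The comparison rests on 4 of the 25 libraries in the series, 2 for each mark, and 18 of the 25 have a list of peaks. All cells in the comparison carried the empty pSin-Pur-MCS-Puro lentiviral vector and grew under puromycin selection. Histone marks were precipitated from native chromatin cut with MNase, an enzyme that digests the DNA between nucleosomes. The other groups used below as independent readouts were control cells profiled for MLL4 (2 lists, from crosslinked and sonicated chromatin) and for H3K4me3 (1 list), and cells given a pSin vector that expresses FOXD2, a forkhead transcription factor, profiled for H3K4me1 and H3K27ac (2 lists each). The labels name no clone and do not say whether replicates came from separate cultures. Errors below thus reflect only how far the libraries differed from each other, which may be a technical spread. The p-values rest on the same libraries and show only whether the lists of the 2 marks separated.

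Regions were merged from the peaks of both lists of a mark, and only regions held by both lists were kept. A region had both marks if it overlapped, by at least 1 bp, a region held by both lists of the other mark. It had 1 mark alone if no peak of either list of the other mark touched it, and the remainder were in between. On chromosomes 1 to 22 and X, 78103 of 108895 merged H3K4me1 regions and 57759 of 145916 merged H3K27ac regions were held by both lists. Of the H3K4me1 regions, 34476 had both marks, 31953 had H3K4me1 alone and 11674 were in between. Of the H3K27ac regions, 35279 had both marks, 19930 had H3K27ac alone and 2550 were in between.

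H3K4me1 is placed on histone H3 by the MLL3 and MLL4 methyltransferases at enhancers and on the flanks of active promoters. H3K27ac is placed by the acetyltransferases p300 and CBP at active enhancers and promoters. A distal region with H3K4me1 and no H3K27ac is commonly described as a primed enhancer, and H3K4me3 marks the start of active or poised genes. Colorectal cancers such as the one HCT116 came from depend on Wnt signalling, and the line is known for a mutated CTNNB1.

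The states met different kinds of promoter sequence, as windows of RefSeq gene starts (GRCh38.p14, the build of the files being hg38) show. The windows run from 250 bases before to 50 after a start. A start has the state of the regions within 2 kb of it. The windows are printed 5′ to 3′ on the gene's strand with each CpG in capitals, because CpG content differed between the states over all windows. ID1, SMAD7 and HNF4A are the genes of the colorectal lists below with the strongest peaks at a start of each state, among the windows open to printing. The state is that of the printed start only. Another start of SMAD7 had both marks, so the gene counts under both marks in the gene counts below. CLDN4, FOXA1 and GREM1 were added after their values were seen, to show the range within a state.

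The windows of ID1 (chr20:31605039-31605338, + strand) and CLDN4 (chr7:73830746-73831045, + strand) lay at starts with both marks and H3K4me3:
ID1: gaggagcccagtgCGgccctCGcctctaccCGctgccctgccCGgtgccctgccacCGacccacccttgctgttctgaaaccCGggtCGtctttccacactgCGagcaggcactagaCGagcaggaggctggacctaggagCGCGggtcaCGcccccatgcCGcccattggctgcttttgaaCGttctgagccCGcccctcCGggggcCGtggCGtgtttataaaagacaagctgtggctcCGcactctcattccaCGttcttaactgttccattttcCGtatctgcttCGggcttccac
CLDN4: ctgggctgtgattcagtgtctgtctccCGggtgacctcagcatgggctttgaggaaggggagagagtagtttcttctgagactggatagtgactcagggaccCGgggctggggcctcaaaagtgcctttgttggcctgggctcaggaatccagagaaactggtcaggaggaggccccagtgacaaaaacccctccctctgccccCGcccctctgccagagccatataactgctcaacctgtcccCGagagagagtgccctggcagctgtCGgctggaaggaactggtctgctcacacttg

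The windows of SMAD7 (chr18:48942758-48943057, − strand, a start inside the gene) and FOXA1 (chr14:37595200-37595499, − strand) lay at starts with H3K4me1 alone and with H3K4me3:
SMAD7: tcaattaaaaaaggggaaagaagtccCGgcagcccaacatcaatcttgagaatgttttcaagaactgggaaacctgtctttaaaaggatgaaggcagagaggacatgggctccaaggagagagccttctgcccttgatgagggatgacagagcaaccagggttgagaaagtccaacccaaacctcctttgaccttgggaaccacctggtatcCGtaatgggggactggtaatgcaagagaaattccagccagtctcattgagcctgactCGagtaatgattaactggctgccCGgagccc
FOXA1: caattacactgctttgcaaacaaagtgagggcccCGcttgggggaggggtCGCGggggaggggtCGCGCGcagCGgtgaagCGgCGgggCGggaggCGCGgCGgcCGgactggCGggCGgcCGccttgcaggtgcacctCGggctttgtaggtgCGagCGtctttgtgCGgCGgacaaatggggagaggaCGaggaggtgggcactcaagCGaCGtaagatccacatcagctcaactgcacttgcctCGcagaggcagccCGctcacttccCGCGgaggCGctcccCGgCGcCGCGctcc

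The windows of HNF4A (chr20:44400989-44401288, + strand, a start inside the gene) and GREM1 (chr15:32717754-32718053, + strand) lay at starts with H3K27ac alone and without H3K4me3:
HNF4A: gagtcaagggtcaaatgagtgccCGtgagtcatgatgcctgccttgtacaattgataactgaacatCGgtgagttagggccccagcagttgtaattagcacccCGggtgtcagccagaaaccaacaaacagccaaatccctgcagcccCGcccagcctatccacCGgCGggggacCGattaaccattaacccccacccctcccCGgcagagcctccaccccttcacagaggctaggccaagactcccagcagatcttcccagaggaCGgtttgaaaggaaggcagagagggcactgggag
GREM1: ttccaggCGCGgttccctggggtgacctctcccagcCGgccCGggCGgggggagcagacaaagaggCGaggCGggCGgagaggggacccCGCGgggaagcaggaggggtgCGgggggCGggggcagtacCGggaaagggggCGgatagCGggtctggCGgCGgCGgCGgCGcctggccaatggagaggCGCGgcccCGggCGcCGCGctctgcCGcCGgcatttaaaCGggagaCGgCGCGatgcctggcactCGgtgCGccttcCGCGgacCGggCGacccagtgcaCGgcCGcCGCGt

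The 6 windows hold 22 CpGs (ID1), 5 (CLDN4), 4 (SMAD7), 34 (FOXA1), 9 (HNF4A) and 42 (GREM1). The ratio of observed to expected CpG was 0.766 for ID1 and 0.192 for CLDN4, 0.221 for SMAD7 and 0.966 for FOXA1, and 0.364 for HNF4A and 0.985 for GREM1. Each state thus held both CpG-rich and CpG-poor starts, and the states differed in the balance, which is given with the gene starts below. ID1 encodes an inhibitor of helix-loop-helix factors induced by BMP signals, SMAD7 an inhibitor of TGF-beta signalling, HNF4A a nuclear receptor of gut and liver epithelium, CLDN4 a tight junction claudin, FOXA1 a forkhead pioneer factor and GREM1 a secreted BMP antagonist.

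H3K27ac peaks were narrower than H3K4me1 peaks in every list as deposited. The median peak width was 959 and 864 bp in the H3K4me1 lists (replicates 1 and 2) and 653 and 655 bp in the H3K27ac lists. The difference, H3K27ac minus H3K4me1, was −257.5 bp (654 ± 1.41 against 911.5 ± 67.2 bp, SD, n = 2, two-sided exact permutation p = 0.333). With only peaks of a −log10 q of 5 or more, the difference was −66 bp and the lists of the marks no longer separated (exact permutation p = 0.667). The p of 0.333 is the smallest that 2 lists against 2 can give, so no comparison of this size can pass 0.05.

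The number of peaks followed no such split. The H3K4me1 lists held 101204 and 95756 peaks and the H3K27ac lists 129995 and 85832. The genome covered was 146 and 121 Mb by H3K4me1 and 132 and 89.3 Mb by H3K27ac, so these groups overlapped (134 ± 17.7 against 110 ± 29.9 Mb, SD, n = 2, two-sided exact permutation p = 0.667). The difference of −23.4 Mb came to −2.26 Mb without H3K27ac replicate 2, −44.5 Mb without H3K27ac replicate 1, −10.8 Mb without H3K4me1 replicate 1 and −35.9 Mb without H3K4me1 replicate 2. The lists of the marks did separate at a −log10 q of 5 or more (−45.2 Mb) and at equal list length (−30.01 Mb), each with the smallest exact permutation p, 0.333. The read depth behind the lists is unknown.

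Peaks within 2 kb of a gene start made up 26.7 and 28.5% of the H3K4me1 lists and 20.9 and 25.5% of the H3K27ac lists. The difference was −4.39 percentage points (27.6 ± 1.26% against 23.2 ± 3.21%, SD, n = 2, two-sided exact permutation p = 0.333). It was −2.12 points without H3K27ac replicate 1 and −6.66 points without H3K27ac replicate 2. It turned to 0.86 points in the other direction when only peaks with a −log10 q of 5 or more were kept. Such a threshold removed 44.8 and 46.6% of H3K27ac peaks and 15.8 and 13.6% of H3K4me1 peaks.

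The marks also differed in how well replicates repeated each other. Both lists held 71.7% of merged H3K4me1 regions and 39.6% of merged H3K27ac regions. The H3K27ac lists differ more in length, which limits their share, and with each list cut to its 85832 strongest peaks the shares were 75.5 and 43.6%. Of the H3K27ac peaks, 42.0 and 56.6% (replicates 1 and 2) overlapped a peak of H3K4me1 replicate 1, and 36.8 and 51.2% a peak of H3K4me1 replicate 2.

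Both marks together covered 44.1% of H3K4me1 regions (95% Wilson interval 43.8 to 44.5%) and 61.1% of H3K27ac regions (60.7 to 61.5%). H3K4me1 alone made up 40.9% of H3K4me1 regions and H3K27ac alone 34.5% of H3K27ac regions. Intervals cover the counting of regions only. The count of H3K27ac alone moved most with the settings. It fell to 6510 at a −log10 q of 5 or more, and rose to 36285 without H3K27ac replicate 1 and 73958 without H3K27ac replicate 2. H3K4me1 alone came to 48458 regions without H3K4me1 replicate 2. With 1 list left out, a region of that mark needs the remaining list only, which raises its counts by construction.

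Regions with both marks were wide. Their median width was 1798 bp for H3K4me1 and 1570 bp for H3K27ac regions, against 918 bp for H3K4me1 alone and 1016 bp for H3K27ac alone. Domains of 10 kb or more numbered 789 among H3K4me1 regions with both marks and 2 among those with H3K4me1 alone. The H3K27ac regions counted 286 and 5. A wide region can meet a peak of the other mark more readily, so the rule itself ties state to width.

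**Figure D1:**
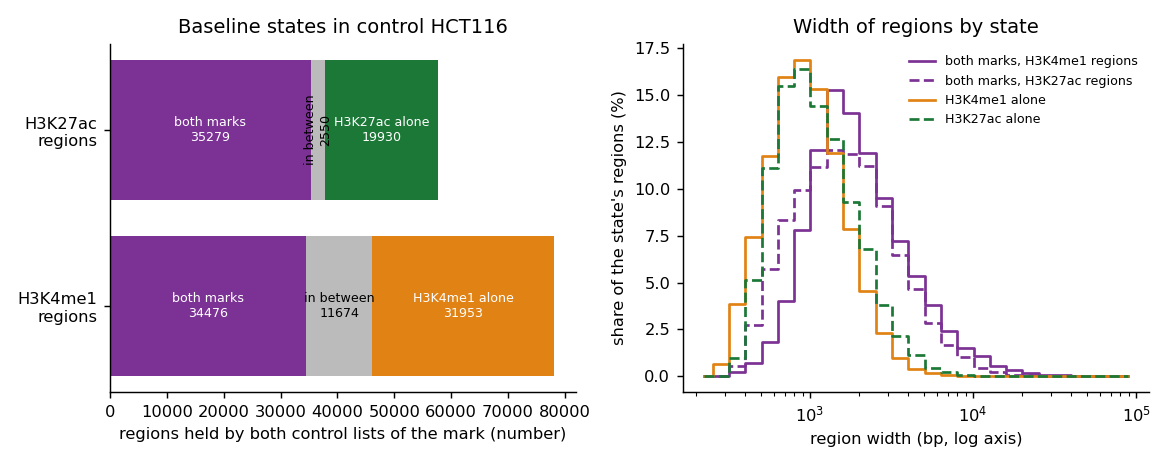
Left, the number of regions held by both control lists of each mark, split by state (both marks, in between, 1 mark alone). Right, the width of regions in each state on a log axis, as the share of the state's regions per width bin. Both states with 1 mark alone peak near 1000 bp, and regions with both marks reach to 93472 bp.

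Inside regions with both marks, the marks mostly met one to one but their summits lay apart. Of the H3K4me1 regions with both marks, 84.8% held 1 H3K27ac region, 12.1% held 2 and 3.03% held 3 or more. The median distance between the strongest H3K4me1 and H3K27ac summits lay between 642 and 685 bp in the 4 pairs of lists. Within 2 kb of a gene start it was 821 to 864 bp and elsewhere 394 to 484 bp.

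The layout around gene starts shows where the marks sat. At 13843 starts with an H3K4me3 peak, an H3K27ac peak covered the start itself in 62.5 and 65.8% of cases, and an H3K4me1 peak in 27.9 and 16.9% (replicates 1 and 2). H3K4me1 was most frequent 1200 bp into the gene, at 79.4 and 68.7% of starts, and H3K27ac 300 bp into the gene, at 78.3 and 77.4%. H3K4me1 thus lay in shoulders on either side of the start in both replicates, with H3K27ac between them. At the 8168 starts without H3K4me3, the start was covered by H3K4me1 in 7.54 and 6.08% and by H3K27ac in 16.6 and 7.77% of cases.

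**Figure D2:**
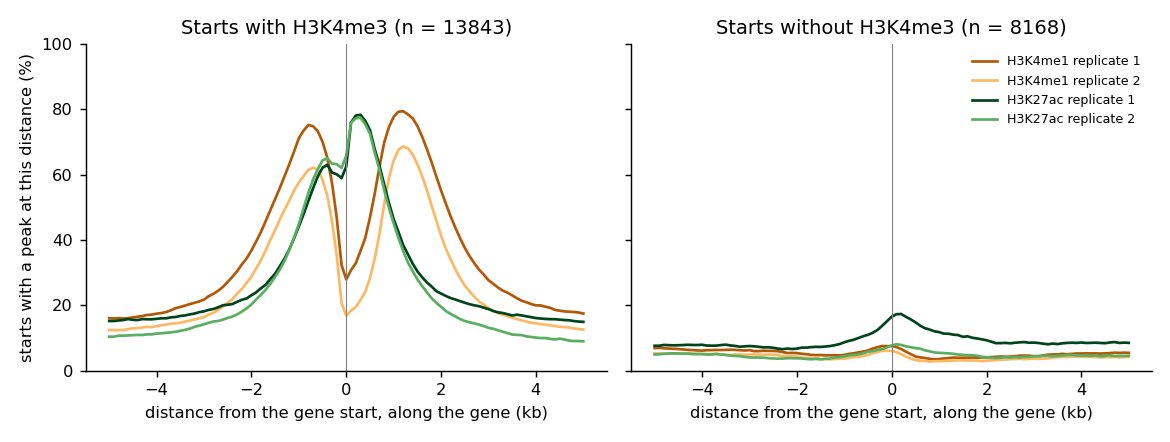
Share of gene starts covered by a peak (y axis, %) against the distance from the start along the gene (x axis, kb), for starts with H3K4me3 (left, n = 13843) and without (right, n = 8168). Each line is 1 control list. At starts with H3K4me3, H3K4me1 dips at the start, to 27.9 and 16.9%, and H3K27ac peaks at 300 bp into the gene. Without H3K4me3, H3K4me1 is highest at −200 bp, at 7.58 and 6.11%.

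Alone regions of the marks lay at different distances from the other mark. The nearest peak of H3K27ac was a median of 14902 bp from a region with H3K4me1 alone, and 13.6% of these regions had none within 100 kb. The nearest H3K4me1 peak was a median of 3986.5 bp from a region with H3K27ac alone, and 32.8% of these regions had one within 2 kb.

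Fold enrichment, the authors' value for each peak over background, was higher where both marks were present. It can be compared only within a list, and each region was given its highest peak. In the H3K4me1 lists the median was 11.8 and 11.1 in regions with both marks and 5.99 and 6.71 in regions with H3K4me1 alone. In the H3K27ac lists it was 5.32 and 5.80 with both marks and 4.14 and 3.98 with H3K27ac alone. The differences were 5.11 ± 1.02 for H3K4me1 and 1.50 ± 0.45 for H3K27ac (SD, n = 2), and all 4 lists gave the same direction.

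The differences were smaller among regions of like width. At 500 to 2000 bp they were 2.96 ± 1.20 for H3K4me1 and 0.81 ± 0.40 for H3K27ac (SD, n = 2). Of regions with H3K27ac alone, 33.5 and 61.6% had no peak with a −log10 q of 5 in replicates 1 and 2, against 15.6 and 20.6% of H3K27ac regions with both marks.

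**Figure D3:**
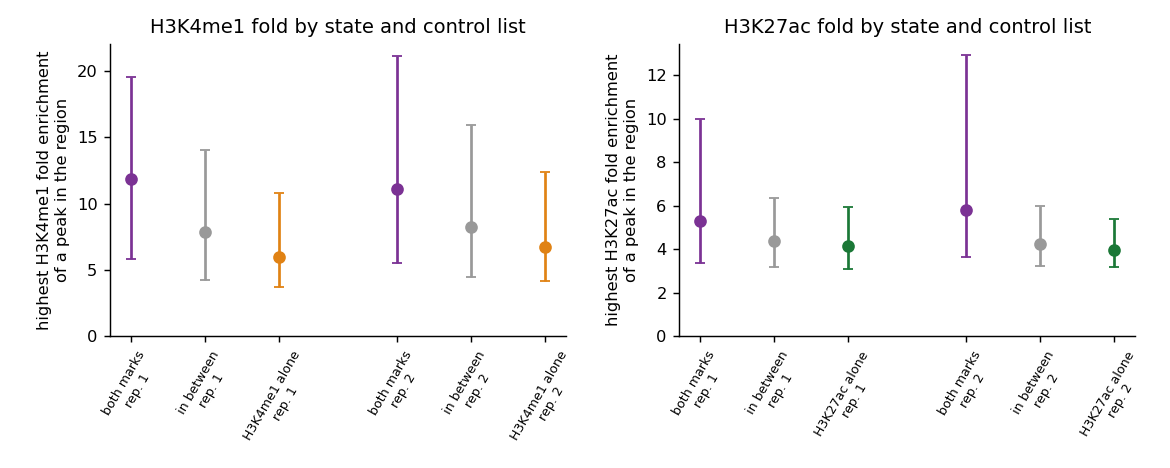
Highest fold enrichment of a peak in the region, for the control H3K4me1 lists (left) and H3K27ac lists (right), by state and replicate. Points are medians over regions and bars run from the 10th to the 90th percentile. In each of the 4 lists the median with both marks is above the median with 1 mark alone.

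The states held different places relative to genes. A gene start lay within 2 kb of 52.8% of H3K4me1 regions with both marks (95% Wilson interval 52.3 to 53.3%) and of 13.8% with H3K4me1 alone (13.4 to 14.2%). The H3K27ac regions gave 41.5% with both marks and 15.7% with H3K27ac alone. H3K4me1 alone lay mostly in gene bodies (47.4%) and between genes (38.8%), and H3K27ac alone did so at 46.6 and 37.7%. When an overlap had to cover 50% of the shorter interval, the difference between both marks and 1 mark alone fell from 39.0 to 24.7 percentage points for H3K4me1 regions, and from 25.8 to 16.2 points for H3K27ac regions.

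Lists that had no part in defining the states set the states apart as well. MLL4, the methyltransferase encoded by KMT2D, had a peak in 27.8 and 26.1% of H3K4me1 regions with both marks (control MLL4 replicates 1 and 2) and in 2.68 and 3.41% of those with H3K4me1 alone. It had a peak in 28.8 and 25.8% of H3K27ac regions with both marks and in 1.96 and 0.351% of those with H3K27ac alone. The differences were 23.9 ± 1.73 points for H3K4me1 regions and 26.2 ± 0.98 points for H3K27ac regions (SD, n = 2 MLL4 lists), and both lists gave the same direction. Among regions of 500 to 2000 bp they were 11.1 ± 3.17 and 16.1 ± 0.43 points. Over 2 kb from every gene end the MLL4 differences were 25.2 ± 0.53 and 22.4 ± 1.62 points.

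H3K4me3, with 1 control list and so no replicate, had a peak in 66.1% of H3K4me1 regions with both marks and 11.5% of those with H3K4me1 alone. It had a peak in 53.3% of H3K27ac regions with both marks and 2.40% of those with H3K27ac alone. Over 2 kb from every gene end, it had a peak in 38.7% of H3K4me1 regions with both marks and 4.09% with H3K4me1 alone. The H3K27ac regions there gave 31.9% with both marks and 0.258% with H3K27ac alone. Peaks of this list were thus not confined to annotated gene ends. The differences there were 34.6 points for H3K4me1 regions and 31.6 points for H3K27ac regions, against 54.6 and 50.9 points over all regions.

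Presence of H3K4me3 divided the regions with H3K27ac alone into unequal groups. The 479 regions with H3K4me3 had a median fold of 5.93 and 6.97 in the H3K27ac lists and lay within 2 kb of a gene start in 91.6% of cases. The 19451 without it had a median fold of 4.12 and 3.98 and lay near a start in 13.8%. The 3665 regions with H3K4me1 alone and H3K4me3 lay near a start in 69.7% of cases.

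The FOXD2 libraries, which share the line but not the vector insert, gave a second look at the control states. Of the regions with H3K4me1 alone in control cells, 80.2 and 81.2% had an H3K4me1 peak and 21.2 and 21.8% an H3K27ac peak (FOXD2 replicates 1 and 2). Of the H3K4me1 regions with both marks, 87.4 and 91.7% had an H3K27ac peak. The 2 states differed by 68.0 ± 2.62 points in H3K27ac (SD, n = 2).

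H3K27ac alone repeated less evenly. Of these regions, 46.1 and 84.2% had an H3K27ac peak in FOXD2 replicates 1 and 2, and 7.19 and 7.97% an H3K4me1 peak. H3K27ac regions with both marks had an H3K4me1 peak in 92.8 and 91.2% of cases. The difference was 84.4 ± 1.72 points (SD, n = 2). In all 4 FOXD2 lists together, 79.8% of H3K4me1 regions with both marks again carried both. Of the regions with H3K4me1 alone, 46.1% were in both FOXD2 H3K4me1 lists and in no H3K27ac list, and 10.9% were in all 4. Of the regions with H3K27ac alone, 37.7% were in both FOXD2 H3K27ac lists and in no H3K4me1 list, and 3.54% were in all 4. FOXD2 expression and library were not separated in these shares.

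**Figure D4:**
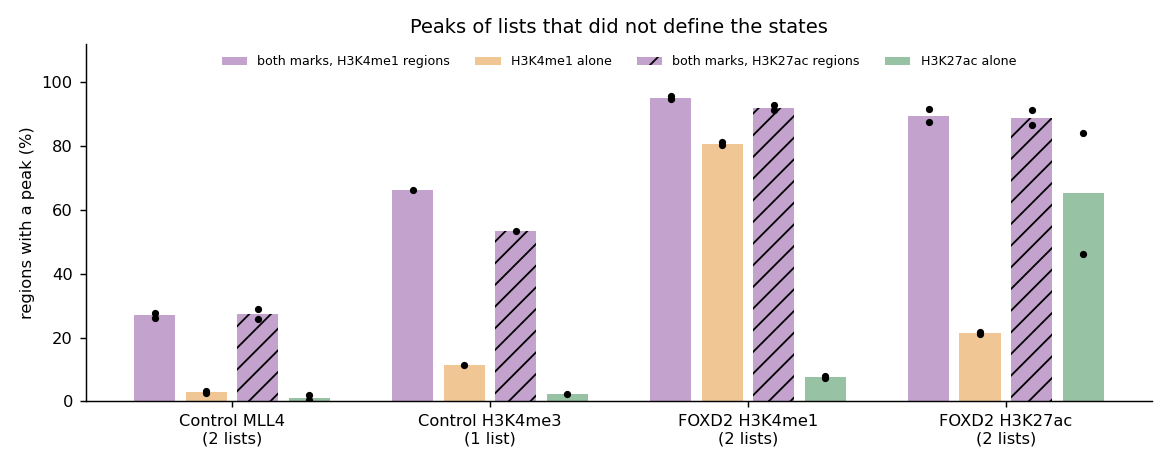
Share of regions of each control state (y axis, %) with a peak in lists that did not define the states. Bars are means over lists and points are single lists. MLL4 and H3K4me3 are highest in regions with both marks, and the H3K27ac alone points for FOXD2 H3K27ac sit far apart, at 46.1 and 84.2%.

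Of 19970 protein-coding genes, 61.1% had a start with both marks, 3.68% with H3K4me1 alone, 3.99% with H3K27ac alone, 10.7% in between and 20.5% with neither. A start here is any start of the gene in the RefSeq promoter table within 2 kb of a region, or either gene end for genes outside that table, and the state is the first of these that applied. H3K4me3 was present at 95.1% of genes with both marks at the start, 55.4% with H3K4me1 alone, 4.52% with H3K27ac alone and 0.927% with neither. Genes with H3K27ac alone at the start were thus nearly all without H3K4me3.

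CpG content differed between the states of starts, and within a state by H3K4me3. The median ratio of observed to expected CpG was 0.833 in 13153 windows with both marks, 0.464 in 860 windows with H3K4me1 alone, 0.397 in 801 windows with H3K27ac alone and 0.307 in 4777 windows with neither, against 0.738 over all 22131 windows. Within H3K4me1 alone, windows with H3K4me3 had a median of 0.741 and windows without it 0.237, and within both marks the medians were 0.843 (12527 windows) and 0.273 (626 windows). Among windows without H3K4me3 the order of the states was therefore another, with H3K27ac alone highest at 0.391 and neither at 0.304. The SMAD7 window printed above, with a ratio of 0.221, carried H3K4me3. Median G+C was 65.7% with both marks, 53.0% with H3K4me1 alone, 61.3% with H3K27ac alone and 48.3% with neither, against 62.3% over all windows. Windows with H3K27ac alone thus had about the G+C of all windows but a lower CpG ratio.

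Short motifs were counted on both strands of the windows, as letters and not as bound sites. TGANTCA, the core of the AP-1 element, was in 4.76% of windows with both marks, 9.19% with H3K4me1 alone, 6.24% with H3K27ac alone, 8.96% with neither and 6.15% of all windows. It is in the HNF4A and the CLDN4 windows above. CCGGAAG, the core of an ETS element, was in 18.0% with both marks, 6.40% with H3K4me1 alone, 4.62% with H3K27ac alone, 4.103% with neither and 12.8% of all windows. GGGCGG, a GC box, was in 71.0, 39.0, 45.7 and 24.5% of these states in the same order and in 56.3% of all windows. CTTTGAT, a core of the TCF and LEF element, was in 1.18, 3.49, 2.12 and 3.94% and in 1.99% of all windows. TATAAA was in 5.27, 13.0, 8.24 and 20.0% and in 9.46% of all windows. Over all windows of a state, shares of CTTTGAT and TATAAA were thus higher with neither mark than with H3K4me1 alone. Among windows without H3K4me3 they were close, at 3.95 and 3.94% for CTTTGAT and 20.1 and 20.9% for TATAAA. Motif shares also differed by H3K4me3 within a state. With H3K4me1 alone, GGGCGG was in 62.8% of windows with H3K4me3 and 12.3% without, TGANTCA in 4.19 and 14.8% and CTTTGAT in 3.08 and 3.94%. With both marks, CCGGAAG was in 18.8 and 2.24%. No motif contains another, but matches of different motifs can share bases.

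The strongest regions with both marks, by the sum of their ranks over the 4 lists, lay at PLEC, an unassigned stretch of chromosome 8, SEPTIN9, NT5C and TCF7L2. PLEC encodes the cytoskeletal linker plectin. Its region, chr8:143930967-143952755, spans 21.8 kb of the gene body with a fold of 28.6 and 26.5 in the H3K4me1 lists and 16.6 and 20.7 in the H3K27ac lists. The region of SEPTIN9, a septin gene, is chr17:77281515-77296415 (14.9 kb), with a fold of 31.5 and 27.7 in H3K4me1 and 14.5 and 19.4 in H3K27ac. CDC42EP4, SLC16A3 and NSMCE2 were also among the top 10. SLC16A3, a lactate transporter, had the highest H3K4me1 fold of the 10, at 42.3 and 49.1. Of the 10 regions, 9 carried H3K4me3 and 8 held a peak of both MLL4 lists. Over all H3K4me1 regions with both marks, 66.1% carried H3K4me3 and 27.8 and 26.1% a peak of MLL4 replicates 1 and 2. Chromosomes 17, 8 and 10 held 26, 17 and 12 of the 100 strongest regions with both marks, against 7.22, 3.99 and 4.83% of all H3K4me1 regions with both marks. Whether copy number or depth sets this order was not tested.

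The widest domain with both marks was 93.5 kb on chromosome 7 with no protein-coding gene within 100 kb. The next were at BLID (74.6 kb), SMAD3 (67.5 kb), EZR, which encodes ezrin of the cell cortex (61.8 kb), and BCL2L1, an inhibitor of apoptosis (50.5 kb). All 5 carried H3K4me3, as did 66.1% of all H3K4me1 regions with both marks. The genes with the most regions of both marks were RAD51B (40), GSE1 (38), PCDH7 (38), CMIP (32) and SLC39A11 (32), with spans from 267 to 863 kb.

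H3K4me1 alone was strongest near COL1A1, a fibrillar collagen gene of fibroblasts, and inside GRHL2, which encodes an epithelial transcription factor. The COL1A1 region (chr17:50218081-50220724) lies 16.4 kb from the gene, with a fold of 18.7 and 19.6. The GRHL2 region (chr8:101537374-101539908) lies in the gene body with a fold of 19.1 and 25.9. ASAP1, RBM20, ABHD5, PTK2, NR6A1, INA and EEFSEC followed, and the last of the 10 had no gene within 100 kb. Of these 10 regions, 3 carried H3K4me3 and 6 held at least 1 MLL4 peak. Over the whole state, 11.5% carried H3K4me3 and 2.68 and 3.41% a peak of MLL4 replicates 1 and 2. None of the 10 is wider than 4.20 kb. Chromosomes 8, 10 and 17 held 11, 9 and 7 of the 100 strongest regions with H3K4me1 alone, against 4.49, 5.09 and 3.47% of the state. Chromosome 4 held 0, against 6.27%. A part of copy number or depth in this order was not tested either.

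FAT1, which encodes a giant cadherin, held the widest region with H3K4me1 alone, 27.4 kb in its gene body with a fold of 16.6 and 14.4. SPRED2, THADA, DCBLD2 and NFAT5 had the next widest, from 11.3 to 8.21 kb. None of these 5 had H3K4me3 or an MLL4 peak. Few regions of the state did: 11.5% had H3K4me3 and 2.68 and 3.41% a peak of MLL4 replicates 1 and 2. The most regions with H3K4me1 alone belonged to ZBTB20 (58), PPP3CA (43), MED13L (35), CDKAL1 (34) and PARD3 (34).

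H3K27ac alone was strongest at gene starts. The top 10 regions included those at SRCAP, POLR3E, CLASP1, NOL11, SPDYE3, YY1AP1, CENPP, VRK1 and MTRF1. The region of SRCAP, a chromatin remodeller, is chr16:30698150-30699581 (1.43 kb wide), with a fold of 15.5 and 21.1 in the H3K27ac lists. POLR3E encodes a subunit of RNA polymerase III, and its region had a fold of 12.5 and 23.7. All 10 carried H3K4me3 and 9 lay within 2 kb of a start, which separates them from the bulk of the state. Such a region is not touched by an H3K4me1 peak, but H3K4me1 can still lie within 2 kb of the same start. H3K4me3 was at 479 regions with H3K27ac alone, but only 36 genes had H3K27ac alone with H3K4me3 at the start.

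The widest regions with H3K27ac alone were unlike the 10 strongest in lacking H3K4me3. They lay at COL2A1 and COL11A2, which encode cartilage collagens, SLC7A5, an amino acid transporter, NEU4 and PLEKHG5, from 11.8 to 10.0 kb. None had H3K4me3 or MLL4. Few regions of the state did: 2.40% had H3K4me3 and 1.96 and 0.351% a peak of MLL4 replicates 1 and 2. The fold of the widest regions ran from 4.48 and 3.92 at SLC7A5 to 7.43 and 7.60 at NEU4. It was 6.50 and 6.93 at COL2A1, while 90% of regions of the state were below 5.93 and 5.37. SORCS2 (58), PRDM16 (46), CAMTA1 (43), RBFOX3 (42) and GSE1 (41) had the most regions.

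Colorectal genes were followed in 11 lists of 20 genes each, by the region nearest to a gene within 100 kb. A region with both marks was assigned to 186 of the 220 members, where 65.6% of all protein-coding genes had one. H3K4me1 alone was assigned to 156 (background 50.5%) and H3K27ac alone to 105 (background 36.2%). At a −log10 q of 5 or more, 178 members had both marks (background 59.9%), 149 H3K4me1 alone (52.7%) and 59 H3K27ac alone (17.9%). Within 20 kb the counts were 183 (background 64.2%), 141 (46.6%) and 87 (33.2%). The median member had 2 regions with both marks, 2 with H3K4me1 alone and 0 with H3K27ac alone, against 1, 1 and 0 over all genes. At starts, 171 members had both marks (background 61.1%), 10 had H3K4me1 alone (3.68%), 8 had H3K27ac alone (3.99%), 17 were in between (10.7%) and 14 had neither (20.5%). A region that touched several genes was assigned to 1 of them, so a start can be marked in a gene with no region assigned.

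Of 20 core genes of the Wnt pathway (receptors, their regulators and transducers), 17 had both marks at the start (background 61.1%). Of these 20, 18 had a region with both marks (background 65.6%), 16 one with H3K4me1 alone (50.5%) and 9 one with H3K27ac alone (36.2%). TCF7L2, the main DNA-binding partner of beta-catenin in colon, had peaks over 151 and 101 kb of its 217 kb span in the H3K4me1 lists and over 28.7 and 31.1 kb in the H3K27ac lists. Its strongest region, chr10:112952107-112972006, is 19.9 kb wide, with a fold of 24.3 and 27.8 in H3K4me1 and 17.4 and 28.8 in H3K27ac. H3K4me1 covered more of this gene than H3K27ac in every list, and 12 of its regions had H3K4me1 alone.

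RNF43 and ZNRF3 encode ubiquitin ligases that remove Wnt receptors. RNF43 was covered over 49.8 and 45.2 kb by H3K4me1 and 15.3 and 13.8 kb by H3K27ac, of a span of 65.0 kb. Its main domain, chr17:58375787-58417501, is 41715 bp wide. ZNRF3 had 8 regions with both marks and 15 with H3K4me1 alone, and H3K4me1 covered 93.0 and 73.4 kb of it against 19.5 and 25.5 kb for H3K27ac. BCL9L, a coactivator of beta-catenin, had a region of 19.1 kb with a fold of 31.0, 37.1, 22.9 and 21.98 in the 4 lists.

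APC and CTNNB1, which encode the scaffold that degrades beta-catenin and beta-catenin itself, were marked more sparsely. APC had both marks at its start (chr5:112708206-112710031, a fold of 10.1 and 10.8 in H3K4me1 and 4.92 and 4.98 in H3K27ac) and 5 regions with H3K4me1 alone, the strongest in the gene body with a fold of 16.5 and 16.2. H3K4me1 covered 7.30 and 6.26 kb of its 139 kb span and H3K27ac 1.87 and 1.14 kb. The CTNNB1 start had both marks and H3K4me3 within 2 kb, and the stronger of its 2 assigned regions with both marks lay 80.9 kb away. It also had a region with H3K4me1 alone near its start (2.87 kb, fold 13.0 and 12.8), and H3K27ac covered 0.683 kb of its span in replicate 1 and none in replicate 2. LEF1, a TCF family factor, had neither mark at its start and 5 regions with H3K4me1 alone. LGR5, the stem cell receptor for R-spondins, had H3K4me1 alone and H3K4me3 at its start.

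Wnt targets gave 16 of 20 genes with both marks (background 65.6%), 16 with H3K4me1 alone (50.5%) and 11 with H3K27ac alone (36.2%). MYC, the growth-promoting transcription factor, had 12 regions with both marks and 5 with H3K4me1 alone assigned to it and none with H3K27ac alone. The strongest, chr8:127795084-127812996, lies 52.1 kb away and is 17.9 kb wide, with a fold of 20.6 and 31.4 in H3K4me1 and 8.69 and 10.3 in H3K27ac. EPHB2, a crypt receptor, was the reverse of TCF7L2: H3K27ac covered 70.0 and 37.8 kb of it and H3K4me1 27.9 and 23.7 kb, and 21 of its regions had H3K27ac alone. VEGFA had 16 regions with H3K27ac alone and CCND1, which encodes cyclin D1, had 9. OLFM4, a stem cell marker, had no peak of either mark in its span in any of the 4 lists.

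**Figure D5:**
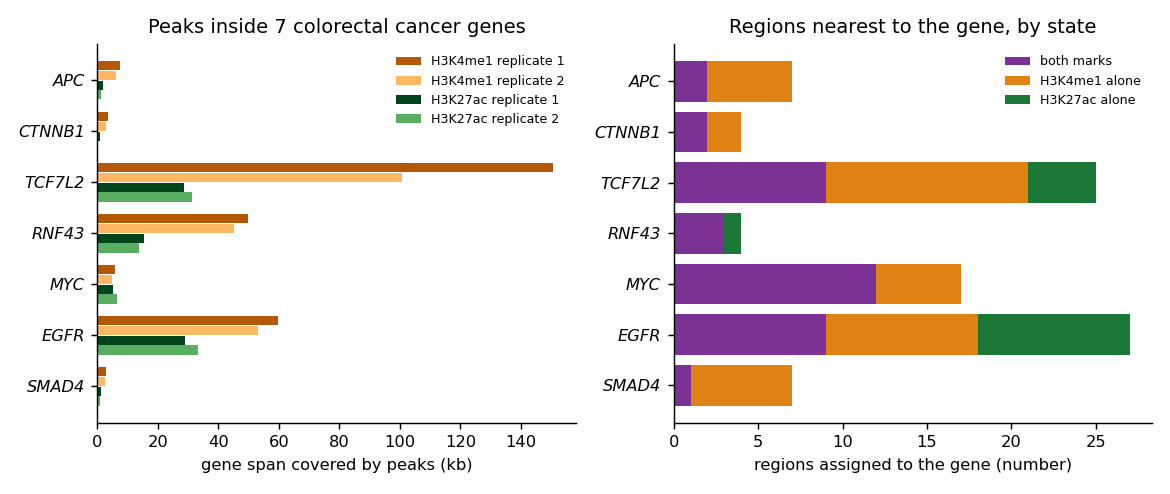
Left, the length of each gene span covered by peaks (kb) in each of the 4 control lists, for 7 genes commonly altered in colorectal cancer. Right, the number of regions of each state nearest to the gene. Of these, TCF7L2, EGFR and RNF43 are covered most, and MYC has 12 regions with both marks.

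In the list of RAS, MAPK and PI3K genes, all 20 starts had both marks (background 61.1%). EGFR, the epidermal growth factor receptor, had 9 regions of each state. Its strongest region, chr7:55126167-55135626 in the gene body, had a fold of 8.39 and 23.5 in H3K4me1 and 12.6 and 23.2 in H3K27ac. MET, the hepatocyte growth factor receptor, had 7 regions with both marks and 13 with H3K4me1 alone. The ligand gene EREG was covered over 21.6 and 17.4 kb of 23.6 kb by H3K4me1 and over 3.77 and 7.17 kb by H3K27ac. PIK3CA, which encodes the catalytic subunit of PI3K, had a region with H3K27ac alone and H3K4me3 at its start (fold 7.45 and 9.93), although H3K4me1 also lay within 2 kb of a start.

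The TGF-beta and BMP list had both marks in 19 of 20 (background 65.6%), H3K4me1 alone in 15 (50.5%) and H3K27ac alone in 9 (36.2%). SMAD3, a signal transducer of TGF-beta, held the 67.5 kb domain named above, with a fold of 32.9 and 34.1 in H3K4me1 and 8.69 and 11.5 in H3K27ac. SMAD6, an inhibitor of BMP signalling, had 21 regions with both marks, 8 with H3K4me1 alone and 14 with H3K27ac alone. SMAD4, the shared partner of the SMADs, had 1 region with both marks at its start (fold 10.1 and 11.3, 11.6 and 12.9) and 6 with H3K4me1 alone. TGFBR2, the type II receptor, was covered over 62.2 and 52.2 kb by H3K4me1 and over 12.05 and 21.03 kb by H3K27ac. BMP2 had no peak of either mark in its span.

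DNA repair genes had the fewest members with H3K27ac alone among the 11 lists. Both marks were assigned to 17 of 20 (background 65.6%), H3K4me1 alone to 12 (50.5%) and H3K27ac alone to 4 (36.2%). At the start, 18 had both marks (background 61.1%). MSH6, which encodes a mismatch recognition protein, had 3 regions with both marks, 2 with H3K4me1 alone and 1 with H3K27ac alone. The strongest with both marks, chr2:47784013-47787879 at its start, is 3.87 kb wide, with a fold of 20.5 and 11.5 in H3K4me1 and 12.4 and 12.6 in H3K27ac. Peaks covered 4.52 and 3.33 kb of its 26.957 kb span in the H3K4me1 lists and 1.92 and 2.39 kb in the H3K27ac lists.

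Chromatin and other tumour suppressor genes had both marks at 18 of 20 starts (background 61.1%). ARID1A, a subunit of the SWI/SNF remodeller, had 4 regions with H3K4me1 alone, the strongest 6.39 kb wide with a fold of 13.3 and 16.0. KMT2C, which encodes MLL3, had H3K4me1 alone at its start, and H3K27ac covered none of its 301 kb in either list. A region with H3K27ac alone lay 28.1 kb from it, with H3K4me3, a peak of both MLL4 lists and a fold of 8.31 and 11.1. FAT1 had 6 regions with both marks and 14 with H3K4me1 alone. DCC, a netrin receptor, had no peak in its span in any list.

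Epithelial junction and keratin genes had a region with both marks in 20 of 20 members (background 65.6%). They had both marks at all 20 starts (background 61.1%). The RAS, MAPK and PI3K genes and the ribosomal protein genes also had both marks at all 20 starts. A region with both marks was assigned to 17 and 18 of 20 members of those lists. Genes of differentiated intestinal cells had both marks at 6 of 20 starts. The counts therefore do not identify an epithelial line. CDH1, which encodes E-cadherin, was covered over 28.5 and 25.3 kb by H3K4me1 and over 19.8 and 17.0 kb by H3K27ac. The CLDN4 domain is 15.9 kb wide with a fold of 28.0, 35.3, 13.7 and 15.9 in the 4 lists, and all of the gene's 1.70 kb lay under peaks of every list. KRT8, a simple epithelial keratin, had 8 regions with both marks and LLGL2, a polarity gene, the strongest of the list.

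Intestinal transcription factors were spread over the states. Of the 20, 17 had both marks (background 65.6%), 18 H3K4me1 alone (50.5%) and 15 H3K27ac alone (36.2%). Starts with both marks numbered 12, near the background of 61.1%. CDX2, the caudal factor of intestinal identity, had both marks at its start and 4 regions with both marks. CDX1 had H3K27ac alone at its start with no H3K4me3, and H3K4me1 covered 1.07 kb of it in replicate 1 and none in replicate 2. HNF4A had 4 regions with both marks, 1 with H3K4me1 alone and 7 with H3K27ac alone. ATOH1, the secretory lineage factor, and FOXA1 had H3K4me1 alone with H3K4me3 at their starts. GRHL2 had both marks at its start (fold 16.0, 13.1, 18.0 and 22.7) and H3K4me1 alone in its body.

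Genes of differentiated intestinal cells had the fewest members with both marks among the 11 lists, 11 of 20 (background 65.6%). Both marks lay at 6 starts (background 61.1%). H3K4me1 alone was assigned to 9 (background 50.5%) and H3K27ac alone to 10 (36.2%). MUC2, the secreted mucin of goblet cells, was covered over 19.3 and 9.89 kb by H3K27ac and over 0.176 kb and 0 kb by H3K4me1. Its start had both marks and H3K4me3, in a region (chr11:1071535-1075049) that lies mostly before the gene, with a fold of 19.9 and 14.9 in H3K4me1 and 13.9 and 11.3 in H3K27ac. MUC5AC, a gastric mucin, was covered over 18.7 and 8.33 kb by H3K27ac and had no H3K4me1 peak in its span, and a region with both marks lay 3.32 kb from it. TFF1, a trefoil peptide gene, had H3K27ac alone at its start and no H3K4me1 peak in its span. FABP2, SI and CA1, which encode a fatty acid binding protein, sucrase-isomaltase and a carbonic anhydrase, had no peak of either mark in any of the 4 lists. The strongest regions with H3K27ac alone at the mucin genes had a fold of 8.15 and 7.51 at MUC2 and 5.74 and 5.72 at MUC5AC, above the state's medians of 4.14 and 3.98.

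YAP and AP-1 genes had both marks in 19 of 20 members (background 65.6%) and at 19 starts (61.1%). MYOF had a domain of 31.5 kb (fold 30.1 and 29.4 in H3K4me1 and 14.8 and 26.5 in H3K27ac), and AMOTL2, a YAP target, one of 20.3 kb. FOSL1, which encodes the AP-1 subunit FRA1, was covered over 7.13 and 6.86 kb of 8.50 kb by H3K4me1 and over 5.52 and 6.14 kb by H3K27ac. TEAD1, the DNA-binding partner of YAP, had 10 regions with both marks and 15 with H3K4me1 alone. ANKRD1 was the member whose start had H3K4me1 alone, with no H3K4me3.

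Mesenchymal genes had both marks in 14 of 20 members (background 65.6%) and at 10 starts (61.1%). The strongest region with both marks assigned to VIM, which encodes vimentin, lay 9.88 kb from the gene and had no H3K4me3. That of PLAUR, the urokinase receptor, overlapped the gene near a start and carried H3K4me3. TWIST2, LOX and FOXC2 had H3K27ac alone at their starts with no H3K4me3, TWIST2 with 8 regions of that state and 8 with both marks. ZEB1 had 6 regions with H3K4me1 alone. It also had a region with H3K27ac alone within 2 kb of a gene start (fold 3.83 and 6.59). That region carried H3K4me3 and a peak of both MLL4 lists. ZEB2, a relative of ZEB1, had none of the 3 states. CDH11, a mesenchymal cadherin, had no peak in any list.

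Markers of other cells give the level at which such assignments occur where the gene is not known for this line. Blood markers had both marks assigned in 7 of 18, H3K4me1 alone in 10 and H3K27ac alone in 6. Fibroblast and endothelial markers had 9, 14 and 10 of 16 and neural markers 9, 8 and 7 of 16. Over all protein-coding genes the shares were 65.6, 50.5 and 36.2%. H3K4me1 alone reached 87.5% of fibroblast and endothelial, 55.6% of blood and 50% of neural markers. H3K27ac alone reached 62.5, 33.3 and 43.8% in the same order. Over the 11 colorectal lists the shares were 70.9% for H3K4me1 alone and 47.7% for H3K27ac alone. Both marks at the start were seen in 6 of 18, 3 of 16 and 6 of 16, below the background of 61.1% of all genes. PTPRC, the defining blood marker CD45, had H3K4me1 over 2.35 and 2.41 kb of its 119 kb and no H3K27ac peak in its span. Ribosomal protein genes, which every cell expresses, had both marks in 18 of 20 members, H3K4me1 alone in 4 and H3K27ac alone in 5, and both marks at all 20 starts.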

How the data were processed

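Data are ChIP-seq peak lists of HCT116 cells, 1 per library, so peaks were called per sample. Per the submitters' processing notes, the tools were MACS2 2.2.7.1, Bowtie2 2.3.4.1, cutadapt 3.4, bedtools and Picard, with the build hg38. The sources used here give neither the depth nor the background library of a list. In the deposited lists, each peak has a fold enrichment (ratio) and, as −log10, a p-value and a q-value, of which the largest was 0.01. In the H3K27ac lists the peak names carry other replicate numbers than the labels, which were followed.

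From these lists, 11 in all, peaks on chromosomes 1 to 22 and X were merged per mark (gap 0 bp). Each region was given to the closest protein-coding gene (RefSeq, GRCh38.p14) within 100 kb. Starts were taken from the RefSeq promoter table, and for genes outside it both gene ends were used. A window of 2 kb either side of a start served for all genes in place of the planned 300-base window, since the table lacks about 1 in 5 genes. Of 19970 protein-coding genes, 15811 had a window (79.2%). Windows on chromosome 8 were counted but not considered for printing.

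Lists were compared by exact permutation tests over lists, and all else is description with 95% Wilson intervals, which cover counting only. Named genes were, per state, the 10 regions ranked highest by −log10 q (ranks summed over lists), the 5 widest, the 5 genes with most regions, up to 4 members per gene list, and 10 commonly altered genes. Some genes these rules name are not reported here. The members, gene lists and rules were chosen with earlier results of these data known. Steps were tested on simulated lists with planted states. Alternatives were a −log10 q of 5, equal list lengths, 50% overlap, a 500 bp gap, each list left out, another definition of alone, like widths, distal regions, 20 kb for genes, a replicate block and, added later, both ends of every gene and the share held by both lists at 2 other settings. Python 3.11.15, numpy 2.4.6, pandas 2.3.3, scipy 1.17.1 and matplotlib 3.10.9 were used.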

Additional observations from a re-analysis of the deposited data

How the results depend on the processing

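Across 22 results and 188 alternatives, 1 reversed. Of 46 alternatives for counts, 39 stayed within 1.5 times. Of 118 for differences and shares, 38 stayed within the SD over lists or the 95% interval, and 80 moved beyond it in the same direction. The other 24 concern the list comparisons (widths, genome covered, peaks near starts), whose test cannot pass 0.05, so they were judged by direction only, and 23 kept it. The reversal was the share of peaks near gene starts, 0.86 points higher in H3K27ac at a −log10 q of 5 or more. That threshold also gave a width difference of −66 bp, 6510 regions with H3K27ac alone and 59 list members with one. Differences between both marks and 1 mark alone follow in percentage points, for H3K4me1 regions and then H3K27ac regions. At −log10 q of 5 they were 44.7 and 27.7 near starts, 26.3 and 33.0 for MLL4, 61.7 and 59.9 for H3K4me3, and 62.6 for FOXD2 H3K27ac. At equal list length they were 40.7 and 27.5 near starts, 57.0 and 55.4 for H3K4me3, and 28.7 for MLL4 at H3K27ac regions. With 50% overlap they were 24.7 and 16.2 near starts, 26.995 for MLL4 at H3K4me1 regions, 42.6 and 42.7 for H3K4me3, and 61.5 and 74.8 for the other mark in FOXD2 cells. With a 500 bp gap, H3K27ac regions gave 27.4 near starts, 28.5 for MLL4 and 53.0 for H3K4me3. With alone defined as no region held by both lists of the other mark, they were 37.7 near starts and 52.0 for H3K4me3 at H3K4me1 regions, and 58.4 and 80.9 for the other mark in FOXD2 cells. At 500 to 2000 bp the fold differences were 2.96 and 0.81, MLL4 11.1 and 16.1, and H3K4me3 49.9 and 40.1. Over 2 kb from every gene end, H3K4me3 gave 34.6 and 31.6, MLL4 22.4 at H3K27ac regions and FOXD2 H3K4me1 82.1. With both ends of every gene, chosen after seeing the data, near starts gave 35.3 and 22.02.

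At equal list length and at a −log10 q of 5, both alternatives chosen after seeing the data, both lists held 75.5 and 75.3% of H3K4me1 regions and 43.6 and 40.6% of H3K27ac regions.

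Leaving out 1 list gave differences between the marks of −305 to −210 bp in width, −44.5 to −2.26 Mb in genome covered and −6.66 to −2.12 points near starts. It gave 37330 to 48458 regions with H3K4me1 alone, 20481 to 73958 with H3K27ac alone, fold differences of 4.25 to 6.20 and 1.02 to 1.46, near-start differences of 29.9 to 38.0 and 22.4 to 24.5, MLL4 differences of 20.1 to 22.5 and 19.2 to 26.1, H3K4me3 differences of 43.1 to 52.7 and 40.9 to 48.8, and FOXD2 differences of 56.5 to 69.3 and 79.9 to 81.7.

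Lists of the 2 marks share replicate numbers, but no label ties the numbers to a shared culture, and the correlation of their deviations across genes was 0.17. With a replicate block, each number was analysed alone and averaged: 55163 regions with H3K4me1 alone and 58613 with H3K27ac alone, 28.8 and 21.3 near starts, 19.6 and 19.4 for MLL4, 42.7 and 39.3 for H3K4me3, and 58.6 and 77.8 for the other mark in FOXD2 cells. A region then needs 1 list only, which raises the counts by construction. The same holds for regions of a mark with 1 list left out. Where a value moved otherwise, the cause was not tested. Depth is unknown, 2 lists per mark limit every comparison, and the lists hold peaks only, so absence means no peak passed the authors' threshold.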

Other observations

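Chromosomes held different shares of the states. Chromosome X held 3.37% of regions with H3K4me1 alone, 1.08% of H3K4me1 regions with both marks and 0.547% of regions with H3K27ac alone. Chromosome 4 held 6.27% of regions with H3K4me1 alone and 3.27% of those with H3K27ac alone. Chromosomes 17 and 19 held 7.96 and 5.26% of regions with H3K27ac alone against 3.47 and 2.07% of those with H3K4me1 alone. These are shares of regions with no test, and neither chromosome length nor copy number was taken into account.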
